A study of Mus musculus with 312 samples.

Results

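The genes described are 10 transcription factors of the basal mammary lineage: Trp63, Snai2, Sox9, Sox10, Tbx2, Tbx3, Myocd, Srf, Zeb1 and Twist2. They were chosen by symbol, as known regulators of basal identity, of mesenchymal-type programs or of contraction, and they are 10 of the 25136 genes used. Their levels were followed in single mammary cells of FVB/NJ mice, captured on the Fluidigm C1, a microfluidic device with a chamber and a cDNA reaction for each cell. All 312 cells carried the label basal. They fell into 112 adult cells whose titles bear the mark (2), 125 adult cells without that mark and 75 cells from pregnant mice, and 81, 58 and 71 of these were retained. No allele, transgene or treatment is named for any group. The labels explain neither the mark nor the day of pregnancy, and they give no age in weeks for the adult mice. The study's text gives 10 weeks for adult basal cells and mid-pregnancy for pregnancy cells captured on this device. The study sorted adult basal cells as Lin- CD29hi CD24+, but its text names total epithelium as the source of pregnancy cells captured in this way, so the basal identity of the 75 cells rests on their labels and on the markers given next.

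No animals are named, so each of the 3 groups counted as 1 sample. Differences between groups therefore had no replicate check and no test, and the stage cannot be told apart from the capture run. Intervals (CI) are exact 95% intervals over cells or reads and cover counting error only, because reads without molecular identifiers are not independent molecules. CPM counts the reads of a gene per 1000000 reads assigned to nuclear, non-ribosomal protein genes in the same cell. Detection is the share of cells with at least 1 read after every cell was thinned at random to 50000 assigned reads, which sets equal depth. At least 6 of 10 core basal genes, a list of keratin, contractile and Cxcl14 genes without any of the transcription factors, reached 100 CPM in 93.8% of marked adult cells (CI 86.2 to 98.0), in 87.9% of unmarked adult cells (CI 76.7 to 95.0) and in 98.6% of pregnancy cells (CI 92.4 to 99.96). The median number of genes per thinned cell was 2325 in marked adult cells, 2211.5 in unmarked adult cells and 3220 in pregnancy cells, so more genes of any kind were detected in pregnancy. Median mitochondrial reads made up 9.65%, 15.6% and 18.4% of the reads in the same order. Markers of other cell types were sparse, with at least 3 of 8 fibroblast genes at 100 CPM in 0, 3 and 3 cells, of 8 pericyte genes in 2, 0 and 0, of 8 endothelial genes in 0, 1 and 0 and of 8 immune genes in 1, 0 and 0. The summed level of the 8 fibroblast genes had a median of 0 CPM in marked adult (range 0 to 3262.3), 28.8 CPM in unmarked adult (range 0 to 38417) and 561 CPM in pregnancy cells (range 55.2 to 5781.2), and Lum and Dpt had no read in marked adult cells. Dcn alone had means of 107, 677 and 1113.3 CPM in marked adult, unmarked adult and pregnancy cells. Only Dcn and Pdgfra of the list had a higher mean in pregnancy than in both adult sets. Col1a1, Col1a2, Col3a1, Lum, Dpt and Mfap5 were lower in pregnancy than in unmarked adult and higher than in marked adult cells. The part of genes per cell, mitochondrial share and fibroblast genes in the differences given next was not tested.

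The basal layer of the mammary epithelium holds contractile myoepithelial cells, which sit on the basement membrane and squeeze milk along the ducts. p63, the protein of Trp63, maintains basal epithelia in many organs, Slug (Snai2) and Sox9 act together to sustain mammary stem cell activity, and SRF, with myocardin-type coactivators, switches on smooth muscle genes. Zeb1 and Twist2 are best known for driving epithelial cells towards a mesenchymal state.

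The 10 genes fell into a commonly detected set and a sparse set. Sox9, Trp63, Snai2, Srf, Tbx3 and Sox10 were each found in between 19.0% and 98.6% of thinned cells of every group, whereas Tbx2, Myocd, Zeb1 and Twist2 were found in between 0% and 7.04%. With another random draw of reads Tbx2 reached 14.1% of pregnancy cells. Trp63 was the gene with the clearest difference between stages, at 267 CPM on average in pregnancy against 91.1 and 83.7 CPM in the adult sets. Snai2 and Srf were higher in pregnancy than in both adult sets, but the unmarked adult cells came close to pregnancy in the mean level of each. Sox9 was the most widely detected gene and its mean CPM lay between 355 and 414 in the 3 groups. Sox10 lay below the marked and above the unmarked adult mean in pregnancy, and Tbx3 lay below both by less than 2-fold.

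**Figure D1:**
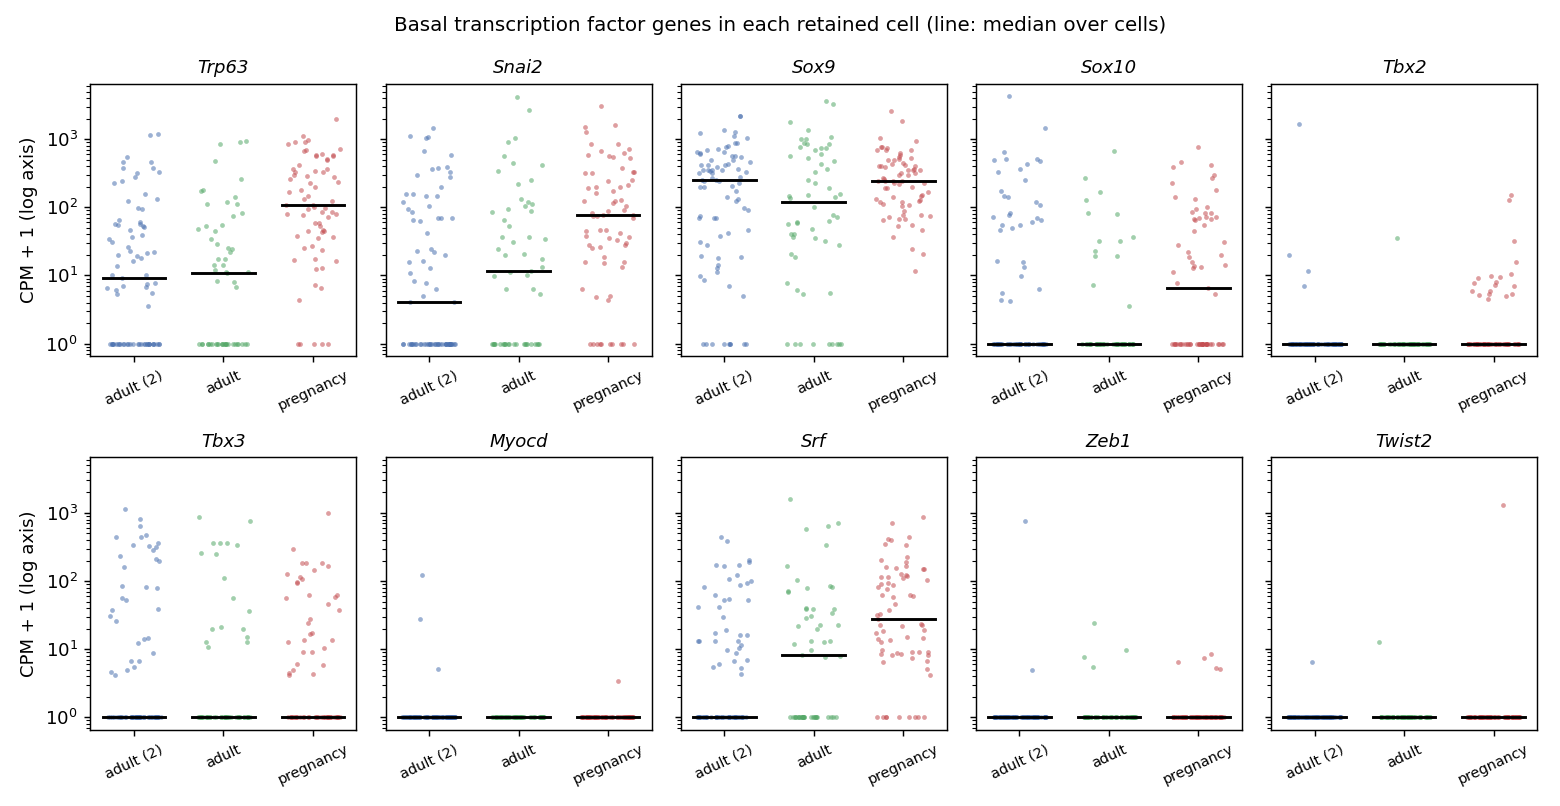
Each point is 1 retained cell, with CPM + 1 on a log axis, for the 10 genes in marked adult (adult (2)), unmarked adult (adult) and pregnancy cells, and the black line is the median over cells. The Trp63 median lies at 106 CPM in pregnancy and under 10 CPM in both adult sets, and Tbx2, Myocd, Zeb1 and Twist2 are at 0 in nearly every cell.

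Trp63 (Entrez 22061, GRCm38 chr16:25683763-25892088, plus strand, exon length 6056 bp) encodes p63. In marked adult cells its level ran from 0 to 1198.4 CPM with a median of 8.01 CPM, and in unmarked adult cells from 0 to 943 CPM with a median of 9.96 CPM. In pregnancy cells it ran from 0 to 1957 CPM with a median of 106 CPM. The ranges overlapped, and the difference lay in the middle of the distributions: the upper quartile of marked adult cells was 55.3 CPM, while the lower quartile of pregnancy cells was 35.9 CPM. After thinning, Trp63 was detected in 44.4% of marked adult cells (CI 33.4 to 55.9), 50.0% of unmarked adult cells (CI 36.6 to 63.4) and 87.3% of pregnancy cells (CI 77.3 to 94.0). Both the share of positive cells and the level within them were higher in pregnancy, since the median among cells positive after thinning was 154 CPM there, against 62.0 and 52.2 CPM in marked and unmarked adult cells. The log2 ratio of mean CPM, with 10 CPM added to each mean, was 1.45 for pregnancy over marked adult and 1.56 for pregnancy over unmarked adult, while the adult sets differed by -0.11 (unmarked over marked). Within cells that held at least 6 core basal genes the ratios were 1.40 and 1.42. No single cell carried the difference, as the highest pregnancy cell held 10.3% of the pregnancy sum. Among the relatives of Trp63, Trp73 had a mean of at most 3.89 CPM in any group, and Trp53, the tumour suppressor p53, had a lower mean in pregnancy, at 412, 488 and 193 CPM in marked adult, unmarked adult and pregnancy cells, although it was detected in 56.8%, 51.7% and 67.6% of thinned cells.

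A ratio was called when pregnancy was at least 2-fold higher, or at least 2-fold lower, than each adult set. Of the 8 genes that reached a mean of 10 CPM in a group, 2 were called higher, Trp63 and Twist2, against 9.26% of all 9882 genes at that level, and 0 were called lower, against 4.44% of all genes. The Twist2 call came from 1 cell, as described further on, which leaves Trp63. Detection was called higher when the pregnancy interval lay above both adult intervals. Among the 6 genes that reached 10% of cells in a group, 3 were called higher, Trp63, Sox9 and Srf, against 11.2% of all 8651 genes at that level, and 0 were called lower, against 0.312%. The call was narrow for Sox9 and Srf: Sox9 was not called after thinning to 20000 reads or in cells with at least 6 core basal genes, with another random draw of reads the genes called were Trp63 and Snai2, and at 100 CPM or more without thinning Trp63 alone was called.

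**Figure D2:**
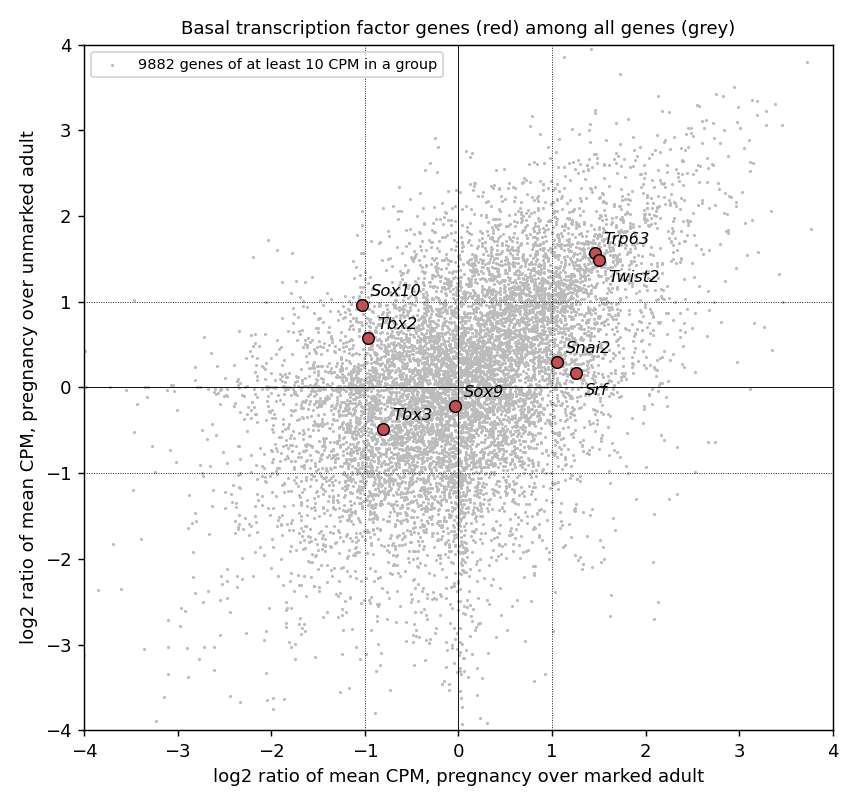
Log2 ratios of mean CPM for pregnancy over marked adult (horizontal) and over unmarked adult (vertical), with 8 of the transcription factors in red and all 9882 genes of at least 10 CPM in a group in grey. Dotted lines mark a 2-fold difference, 26 genes lie outside the axes, Myocd and Zeb1 are left out as too low, and Trp63 and Twist2 are the red points in the upper right field.

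Snai2 (Entrez 20583, GRCm38 chr16:14705852-14709395, plus strand, exon length 2014 bp) encodes Slug, a repressor of epithelial genes. Its level ran from 0 to 1479.9 CPM in marked adult cells with a median of 3.1 CPM. In unmarked adult cells it ran from 0 to 4136.5 CPM with a median of 10.6 CPM, and in pregnancy cells from 0 to 3115.3 CPM with a median of 76.1 CPM. The highest cell of all was thus an unmarked adult cell, although the middle of the distribution was highest in pregnancy. The means were 120, 209 and 259 CPM in marked adult, unmarked adult and pregnancy cells, and the unmarked adult mean was 140 CPM without its highest cell. The log2 ratio was 1.05 for pregnancy over marked adult and 0.30 for pregnancy over unmarked adult, and when log2 values were averaged over cells it was 1.48 and 1.22. In cells with at least 100000 assigned reads and 1500 genes the ratio to unmarked adult turned to -0.33. Thinned detection was 39.5% in marked adult cells (CI 28.8 to 51.0), 51.7% in unmarked adult cells (CI 38.2 to 65.0) and 76.1% in pregnancy cells (CI 64.5 to 85.4). The median among positive cells did not share this order, at 145, 90.9 and 124 CPM. Its paralog Snai1 was lower per exon length in nearly every cell that held either gene, Snai2 being the higher in 41 of 44 marked adult cells, 33 of 36 unmarked adult cells and 61 of 62 pregnancy cells.

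Sox9 (Entrez 20682, GRCm38 chr11:112782210-112787757, plus strand, exon length 4146 bp) encodes an HMG-box factor of stem and progenitor cells. In marked adult cells it ran from 0 to 2199.7 CPM with a median of 252 CPM, and in unmarked adult cells from 0 to 3605 CPM with a median of 119 CPM. In pregnancy cells it ran from 10.6 to 2588.5 CPM with a median of 245 CPM, so that no retained pregnancy cell lacked a read. The distribution was narrower in pregnancy, where the 10th percentile was 63.5 CPM and the 90th 698 CPM. In the adult sets the 10th percentiles were 0 and the 90th percentiles 869 and 1004.9 CPM. These values are not thinned, and median assigned reads were 174913, 101336 and 230661 in marked adult, unmarked adult and pregnancy cells. The part of depth in the spread was not tested. Thinned detection was 84.0% in marked adult cells (CI 74.1 to 91.2), 77.6% in unmarked adult cells (CI 64.7 to 87.5) and 98.6% in pregnancy cells (CI 92.4 to 99.96). The mean levels were 366, 414 and 355 CPM, and the log2 ratios of pregnancy over marked and unmarked adult were -0.04 and -0.22. With log2 values averaged over cells the ratios were 0.59 and 0.95.

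Sox10 (Entrez 20665, GRCm38 chr15:79154913-79164490, minus strand, exon length 2713 bp) encodes a related HMG-box factor, known from neural crest and glia and from mammary stem and basal cells. Its levels ran from 0 to 4298.1 CPM in marked adult cells, from 0 to 678 CPM in unmarked adult cells and from 0 to 762 CPM in pregnancy cells, and its medians were 0, 0 and 5.46 CPM. A marked adult cell held 38.5% of the marked adult sum, and without it the marked adult mean was 85.8 CPM instead of 138 CPM. The unmarked adult mean was 27.0 CPM and the pregnancy mean 62.2 CPM. Pregnancy thus lay below one adult set and above the other, with log2 ratios of -1.03 and 0.96, and the adult sets differed by -2.0 (unmarked over marked). Thinned detection was 33.3% (CI 23.2 to 44.7), 19.0% (CI 9.87 to 31.4) and 39.4% (CI 28.0 to 51.7) in marked adult, unmarked adult and pregnancy cells, and these intervals overlapped. The cell with the most Sox10 held 10 of 10 core basal genes and 0 of 8 Schwann cell genes at 100 CPM, a Sox9 level of 878 CPM and no Trp63 or Snai2. At least 3 of 8 Schwann cell genes reached 100 CPM in 0, 1 and 0 cells of the groups, and none of the Sox10-positive cells was among them. Per exon length Sox9 exceeded Sox10 in 58 of 75 marked adult cells with either gene, in 45 of 49 unmarked adult cells and in 63 of 71 pregnancy cells.

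Tbx3 and Tbx2 are T-box repressors, and Tbx3 is needed for mammary bud formation. Tbx3 (Entrez 21386, GRCm38 chr5:119670534-119684724, plus strand, exon length 5082 bp) shares exon sequence with its antisense gene Tbx3os1, and reads from the 2 genes cannot be told apart because the strand setting of the counting is not stated. Its median was 0 CPM in all 3 groups, and its highest levels were 1132.1 CPM in marked adult, 877 CPM in unmarked adult and 994 CPM in pregnancy cells. The groups did not separate in detection, at 30.9% (CI 21.1 to 42.1), 25.9% (CI 15.3 to 39.0) and 32.4% (CI 21.8 to 44.5). Positive cells held less in pregnancy, with medians of 209, 247 and 92.3 CPM in marked adult, unmarked adult and pregnancy cells. The means were 85.2, 66.4 and 44.5 CPM, and the ratios of pregnancy over marked and unmarked adult were -0.81 and -0.49 on the log2 scale. With log2 values averaged over cells these ratios were -0.20 and 0.10. The unmarked adult cell with the most Tbx3 held 0 of 10 core basal genes and 7 of 8 fibroblast genes, and the unmarked adult mean without it was 52.2 CPM.

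Tbx2 (Entrez 21385, GRCm38 chr11:85832615-85841948, plus strand, exon length 3562 bp) was sparse. Marked adult cells held 104 reads (CI 85.0 to 126), of which 1 cell held 98, so that this cell made up 97.9% of the sum of CPM. That cell stood at 1660.7 CPM, carried 8 of 10 core basal genes, none of the other marker lists and no Trp63. Unmarked adult cells held 3 reads (CI 0.619 to 8.77) in 1 cell. Pregnancy cells held 127 reads (CI 106 to 151) spread over 19 cells, with levels of at most 150 CPM. Low Tbx2 was therefore seen in more cells in pregnancy without thinning (26.8% of cells, against 4.94% and 1.72% in marked and unmarked adult), but after thinning the counts were 5 cells against 2 and 1. These thinned counts depended on the draw of reads: with another random draw the shares were 14.1% in pregnancy, 4.94% in marked and 1.72% in unmarked adult cells. Tbx3 was higher than Tbx2 per exon length in 34 of 38, 17 of 18 and 31 of 46 cells that held either gene in marked adult, unmarked adult and pregnancy.

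**Figure D3:**
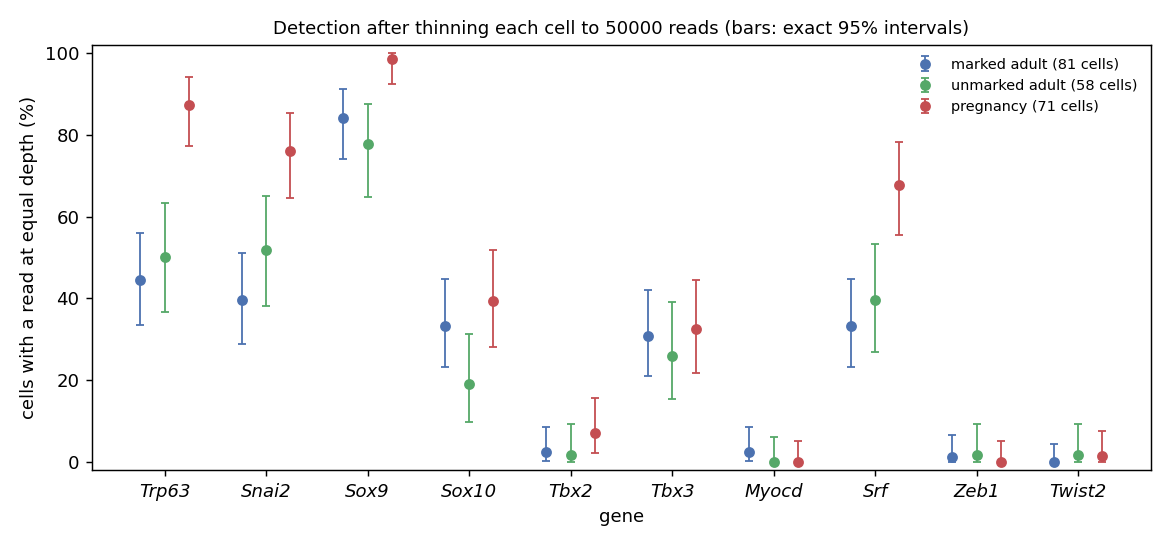
Share of cells, in percent, with at least 1 read of each gene after every cell was thinned to 50000 reads, for marked adult (81 cells), unmarked adult (58 cells) and pregnancy (71 cells), with bars for exact 95% intervals over cells. Trp63 stands at 87.3% in pregnancy against 44.4% and 50.0% in the adult sets, and the Tbx3 intervals overlap.

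Srf (Entrez 20807, GRCm38 chr17:46546838-46558267, minus strand, exon length 4093 bp) encodes serum response factor, the DNA-binding partner of myocardin and of the related coactivators MRTF-A and MRTF-B. In marked adult cells it ran from 0 to 442 CPM with a median of 0 CPM, and in unmarked adult cells from 0 to 1605.9 CPM with a median of 7.18 CPM. In pregnancy cells it ran from 0 to 881 CPM with a median of 26.5 CPM. Detection after thinning was 33.3% (CI 23.2 to 44.7), 39.7% (CI 27.0 to 53.4) and 67.6% (CI 55.5 to 78.2) in marked adult, unmarked adult and pregnancy cells. The means were 34.7, 85.0 and 96.8 CPM, and 1 unmarked adult cell held 32.6% of the unmarked adult sum, whose mean without it was 58.3 CPM. Pregnancy over marked adult was 1.26 on the log2 scale and pregnancy over unmarked adult 0.17, so the mean separated pregnancy from 1 adult set only, and in cells with at least 100000 assigned reads and 1500 genes the ratio to unmarked adult was -0.56. Between the adult sets Srf was at least 2-fold higher in unmarked cells (1.09 on the log2 scale), the only 1 of 8 genes so called, beside 15.8% of all genes. This call was lost without the highest cell of each group (0.79), with log2 values averaged over cells (0.35) and with a pseudocount of 100 CPM (0.46). Sox10 and Tbx2 were at least 2-fold lower in unmarked cells, beside 17.4% of all genes, but the Tbx2 call came from the 1 marked adult cell with 98 reads, and without the highest cell of each group its ratio was -0.06 instead of -1.55. The Sox10 ratio was -0.84 with log2 values averaged over cells and -0.91 with a pseudocount of 100 CPM.

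Myocd (Entrez 214384, GRCm38 chr11:65173608-65269989, minus strand, exon length 5127 bp) encodes myocardin, and it was nearly undetected. Marked adult cells held 16 reads in 3 cells, unmarked adult cells held 0 reads in 58 cells, so that up to 5.17% of cells could hold a read, and pregnancy cells held 1 read in 71 cells. Of the 16 marked adult reads 10 lay in 1 cell, at 120 CPM. That cell also held Zeb1 at 765 CPM, Pdgfrb at 4640.6 CPM, Notch3 at 2284.4 CPM, Des at 359 CPM, Myh11 at 5190.8 CPM and Mylk at 15476.6 CPM, with no keratin of the core basal list at 100 CPM and no read of Trp63. It carried 5 of 10 core basal and 3 of 8 pericyte genes. A second marked adult cell, with 5 Myocd reads, held 10 of 10 core basal genes and 0 pericyte genes.

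The coactivators of SRF differed in level. Per exon length, Mrtfb (MRTF-B) had a mean of 15.2, 15.6 and 5.91 RPKM in marked adult, unmarked adult and pregnancy cells, against 0.363, 0 and 0.00677 RPKM for Myocd and 4.09, 3.19 and 2.78 RPKM for Mrtfa (MRTF-A). Mrtfb was called lower in pregnancy, with mean levels of 136, 141 and 53.1 CPM and log2 ratios of -1.21 and -1.25. It was the only 1 so called of the 5 SRF partner genes tested of 7 listed, beside 4.44% of all genes. By detection Mrtfb was not called, at 35.8%, 36.2% and 25.4% of thinned marked adult, unmarked adult and pregnancy cells. Fhl2, an SRF-binding LIM protein, stood at 54.5, 91.3 and 122 CPM.

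Genes that SRF and its coactivators are known to control were compared with Srf itself. Of 18 smooth muscle and contractile genes listed, 17 reached 10 CPM, and 4 of these were called higher in pregnancy, beside 9.26% of all genes, and 0 lower, beside 4.44%. Itga8, an integrin chain, had means of 39.2, 50.0 and 244 CPM in marked adult, unmarked adult and pregnancy cells. Synm, which encodes the intermediate filament protein synemin, had means of 75.6, 37.2 and 319 CPM. Actg2, the enteric smooth muscle actin, had 470, 167 and 1078.3 CPM, and Mylk, the myosin light chain kinase, had 3487.4, 2088.4 and 7709 CPM. The median log2 ratio of the 17 genes was 0.58 against marked and 0.98 against unmarked adult, beside 0.04 and 0.09 over all genes, and 13 of the 17 were higher than both adult sets, beside 36.44% of all genes. Tagln, the smooth muscle protein transgelin, was not among them, at 9334.4, 7249.8 and 7202.2 CPM. Of 10 immediate early genes, the other class of SRF targets, 9 were tested by ratio. None was called in either direction, beside 9.26% of all genes called higher and 4.44% lower. By detection 4 of the 10 were called higher, beside 11.2% of all genes: Egr2, Nr4a1, Arc and Mcl1, at between 84.5% and 98.6% of thinned pregnancy cells and between 46.6% and 74.1% of thinned adult cells. Within the groups, summed contractile CPM had no common order by Srf detection: its median was 36913.7 CPM in cells with Srf and 43361.7 CPM in cells without it in marked adult, 37285 against 27886.6 CPM in unmarked adult, and 54757.5 against 52531.2 CPM in pregnancy.

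**Figure D4:**
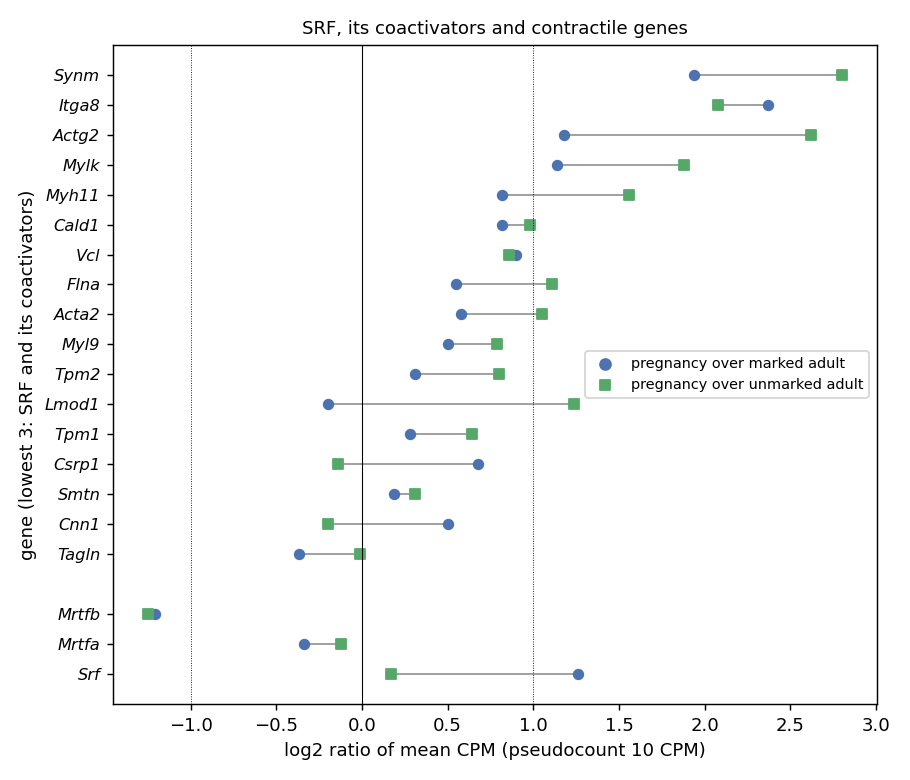
Log2 ratio of mean CPM for pregnancy over marked adult (circles) and over unmarked adult (squares) for Srf, its coactivators Mrtfa and Mrtfb, and the 17 contractile genes tested, with dotted lines at a 2-fold difference. Synm, Itga8, Actg2 and Mylk lie beyond 2-fold against both adult sets, and Mrtfb lies beyond 2-fold in the opposite direction.

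SRF binds a short element called the CArG box, the element through which it is known to reach contractile genes and its own gene, and the promoters of this group that hold it are shown for that reason. RefSeq promoters on GRCm38.p6, from 250 bases before to 50 bases after the start, were matched by symbol for 2 of the 10 transcription factors, Srf and Twist2, and for 15 of the 18 contractile genes. A perfect CArG box, which reads alike on both strands and was the only motif searched, was found in 1 of the 2 transcription factor promoters and in 2 of the 15 contractile gene promoters, and in 1.63% of all 32851 promoters. The capitals mark the boxes, which lie 82 and 62 bases before the start in Srf (chr17:46556113-46556412, minus strand), 161 before it in Myl9 (chr2:156775214-156775513, plus strand) and 227 before it in Vcl (chr14:20929148-20929447, plus strand). For Srf the start used lies inside the gene interval given above (chr17:46546838-46558267) and not at its upstream end, so the distances refer to that start only. A match is a description of the sequence and not a bound site.
Srf: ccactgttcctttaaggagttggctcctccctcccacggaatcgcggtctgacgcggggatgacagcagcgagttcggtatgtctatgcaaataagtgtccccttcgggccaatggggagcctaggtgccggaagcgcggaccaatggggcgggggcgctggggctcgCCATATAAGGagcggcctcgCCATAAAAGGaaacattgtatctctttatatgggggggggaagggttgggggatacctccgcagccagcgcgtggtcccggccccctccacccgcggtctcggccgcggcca
Myl9: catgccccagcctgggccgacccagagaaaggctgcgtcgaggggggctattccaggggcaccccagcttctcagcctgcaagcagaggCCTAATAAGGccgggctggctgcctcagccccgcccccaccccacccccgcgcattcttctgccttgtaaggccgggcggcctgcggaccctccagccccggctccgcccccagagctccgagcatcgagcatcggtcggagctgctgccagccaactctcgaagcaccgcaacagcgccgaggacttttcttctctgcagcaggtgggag
Vcl: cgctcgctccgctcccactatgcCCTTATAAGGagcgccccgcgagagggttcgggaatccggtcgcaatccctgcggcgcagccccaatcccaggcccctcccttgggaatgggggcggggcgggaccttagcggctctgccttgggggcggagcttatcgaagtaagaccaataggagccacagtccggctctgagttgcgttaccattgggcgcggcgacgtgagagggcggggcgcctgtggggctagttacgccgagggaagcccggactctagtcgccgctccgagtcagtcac

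Zeb1 and Twist2, the factors of mesenchymal programs, were close to absent. Zeb1 (Entrez 21417, exon length 5806 bp, overlapped by the antisense gene Gm10125) had 65 reads in marked adult cells (CI 50.2 to 82.8), 5 in unmarked adult cells (CI 1.62 to 11.7) and 5 in pregnancy cells (CI 1.62 to 11.7). Of the 65 reads, 64 lay in the Pdgfrb-rich cell described for Myocd. In the other cells with Zeb1 it rested on 1 or 2 reads. Of the 4 unmarked adult cells with Zeb1, 3 held 5, 6 or 7 of the 8 fibroblast genes at 100 CPM. Its relative Zeb2 had means of 15.8, 16.7 and 3.45 CPM.

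Twist2 (Entrez 13345, GRCm38 chr1:91801461-91848034, plus strand, exon length 1312 bp, overlapped by the antisense gene Gm29100) had 1 read in marked adult cells, 1 in unmarked adult cells and 374 in pregnancy cells. All 374 lay in 1 pregnancy cell at 1319.6 CPM, and the other 70 pregnancy cells had none. That cell was of basal character, with 8 of 10 core basal genes, Acta2 at 23696.1 CPM, Trp63 at 70.6 CPM and Tbx2 at 127 CPM. Dcn, which encodes the matrix proteoglycan decorin, was its only fibroblast gene at 100 CPM (113 CPM), and Dcn was detected in 100% of thinned pregnancy cells, against 25.9% and 53.4% of marked and unmarked adult cells. Twist1 had a mean below 1 CPM in all 3 groups.

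Epithelial genes that Snail and Zeb factors are known to repress had no common direction. Of 10 listed, 6 were tested, with a median log2 ratio of 0.15 against marked and -0.09 against unmarked adult. Of these 6, 1 was called lower in pregnancy, beside 4.44% of all genes, and 1 higher, beside 9.26%. Cdh1, which encodes E-cadherin, was the gene called lower, at 62.6, 68.3 and 26.1 CPM. Its thinned detection did not follow, at 34.6%, 19.0% and 33.8% of marked adult, unmarked adult and pregnancy cells. Patj, a tight junction scaffold, was the gene called higher, at 51.1, 14.9 and 113 CPM. By detection neither was called. Epcam, an epithelial adhesion molecule, stood at 616, 623 and 478 CPM in marked adult, unmarked adult and pregnancy cells.

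Of 16 genes of basal adhesion and keratin filaments linked to p63, all were tested, and by ratio 1 was called higher, beside 9.26% of all genes, and 1 lower, beside 4.44%, shares near those of all genes. Perp, a desmosomal p63 target, was the gene called higher, at 546, 610 and 1376 CPM in marked adult, unmarked adult and pregnancy cells. Itgb4, the hemidesmosomal integrin chain, was called lower, at 69.2, 13.8 and 1.86 CPM. By detection, also tested for all 16, Perp and the laminin chains Lama3 and Lamb3 were called higher, beside 11.2% of all genes. Itgb4 was called lower by detection, beside 0.312% of all genes. The basal keratins Krt5 and Krt14 were not called, Krt5 with means of 650, 449 and 293 CPM. The median log2 ratio of the 16 genes was 0.21 against marked and 0.29 against unmarked adult.

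The opposing luminal regulators showed no call in either direction among the 5 of 10 tested, beside 9.26% of all genes called higher and 4.44% lower. At such shares a lack of calls among 5 genes is not a result about them. Gata3, the main luminal regulator, was read in most of the cells labelled basal, with thinned detection of 71.6%, 77.6% and 91.5% and mean levels of 263, 303 and 252 CPM in marked adult, unmarked adult and pregnancy cells. Foxa1 had a mean below 1 CPM in all 3 groups, and Foxi1 had no read. Elf5, the alveolar regulator, had means of 11.2, 0 and 1.04 CPM. At least 3 of 8 luminal genes reached 100 CPM in 4, 6 and 1 cells.

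Compared per exon length, Snai2 and Sox9 led in every group. In pregnancy the mean levels were 129 RPKM for Snai2, 85.7 for Sox9, 44.1 for Trp63, 23.7 for Srf, 22.9 for Sox10, 14.2 for Twist2 (from 1 cell) and 8.76 for Tbx3. In marked adult cells Sox9 came first with 88.2 RPKM, before Snai2 with 59.6 and Sox10 with 50.8, and Trp63 was the fifth with 15.0. By the median over cells Sox9 was first in all 3 groups, with 60.7, 28.7 and 59.0 RPKM in marked adult, unmarked adult and pregnancy cells, because a few cells carried much of the Snai2 mean. Srf and Sox10 in pregnancy were neighbours whose means lay far closer than the spread between cells.

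The genes were also combined within cells. The median number of the 10 genes detected in a thinned cell was 3 in marked adult (CI 2 to 3), 2 in unmarked adult (CI 2 to 3) and 4 in pregnancy cells (CI 4 to 4). At least 4 were detected in 28.4% of marked adult cells (CI 18.9 to 39.5), 25.9% of unmarked adult cells (CI 15.3 to 39.0) and 76.1% of pregnancy cells (CI 64.5 to 85.4). Trp63, Snai2 and Sox9 were found together in 16 of 81, 16 of 58 and 48 of 71 cells. Thinned cells also held more genes of any kind in pregnancy, a median of 3220 against 2325 in marked and 2211.5 in unmarked adult. Whether these counts exceed those of other sets of genes was not tested. Adult cells were varied, with 41 distinct combinations among 81 marked and 29 among 58 unmarked cells, and the commonest combinations in marked adult cells were Sox9 alone and Sox9 with Sox10, in 6 cells each. In pregnancy the commonest was Trp63, Snai2, Sox9 and Srf, in 11 of 71 cells. An unmarked adult cell held 8 of the 10 genes, the highest number seen, together with 10 of 10 core basal, 5 of 8 fibroblast and 4 of 8 luminal genes.

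**Figure D5:**
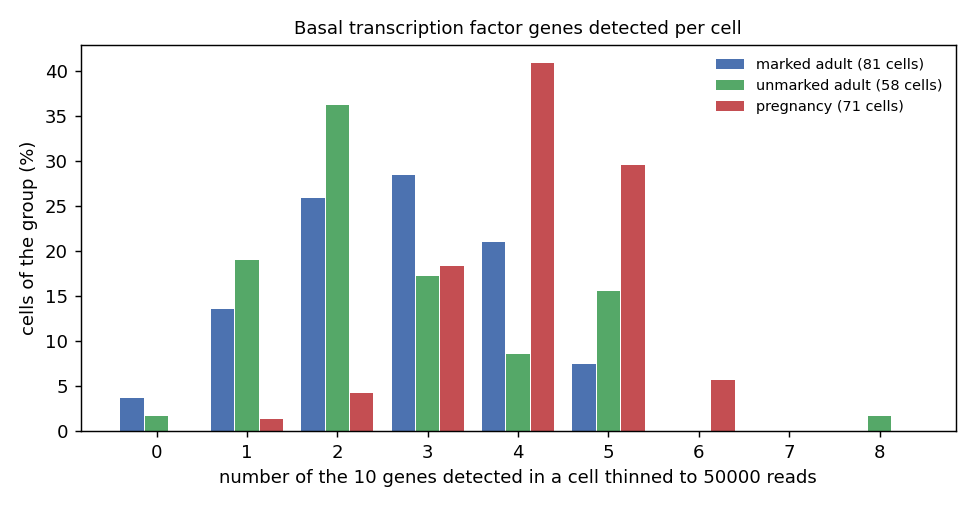
Share of the cells of each group, in percent, by how many of the 10 genes were detected after thinning to 50000 reads. Adult cells peak at 2 or 3 genes and pregnancy cells at 4.

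Most cells in which Trp63 was not detected held core basal genes. Thinned cells without Trp63 held a median of 9 of 10 core basal genes in marked adult, 8 in unmarked adult and 9 in pregnancy, against 9.5, 9 and 9 in cells with it. At least 6 of these genes were held by 41 of 45 marked adult, 24 of 29 unmarked adult and 8 of 9 pregnancy cells without Trp63, and by 35 of 36, 27 of 29 and 62 of 62 cells with it. Most often, cells with a read of a commonly detected transcription factor also had more genes in all: for Trp63 the median genes per thinned cell were 2619.5 against 2080 in marked adult, 2461 against 2111 in unmarked adult and 3232 against 3160 in pregnancy. For Srf in marked adult cells they were 2819 against 2015.5, and for Tbx3 in pregnancy, the exception, 3213 against 3230.5. The genes whose thinned counts were most like those of Trp63 over cells were Cyfip1 and Uimc1, each with a lowest Spearman rho of 0.28 over the 3 groups, and Mbnl1 with 0.27, among 2661 genes compared. For Snai2 they were Dnaja2, Stmn1 and Trp53bp1 (0.27, 0.23 and 0.22), for Sox9 Bola2, Zfand6 and Aggf1 (0.24, 0.21 and 0.19), for Tbx3 Slc25a13 and Fnbp1l (0.22 and 0.20) and for Srf Eif4e2 and Arhgef39 (0.25 each). These are weak correlations over 81, 58 and 71 cells that share the number of genes per cell, and no gene stood apart as a companion of any of the transcription factors.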

How the data were processed

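Gene counts of 312 cells were used as deposited by the authors: whole numbers of read pairs for each Entrez gene in each cell, without normalization. According to the study's methods, read pairs were mapped to the mm10 mouse genome with Subread (version 1.5.0 per the submitters' processing notes) and assigned with featureCounts to its RefSeq annotation. Whether counting used the strand is not given in the sources used here. Of 27179 gene IDs, 25275 matched a symbol in the RefSeq annotation of GRCm38, and 15 mitochondrial and 124 ribosomal protein genes were left out, which left 25136 genes. Cells with at least 50000 assigned reads and 1000 genes were retained. Retained cells had medians of 174913 (marked adult), 101336 (unmarked adult) and 230661 (pregnancy) assigned reads. No doublet caller was run. A table of the whole series held the same values and was not used.

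CPM was averaged over cells with equal weight, and log2 ratios were taken after adding 10 CPM to each mean, which understates changes of low genes. Calls required an absolute log2 ratio of at least 1 of the same sign against both adult sets. RPKM is CPM per kilobase of exon. Shares have exact Clopper-Pearson intervals, read sums exact Poisson intervals and medians per cell binomial rank intervals. For a share of 0 the limit is that of 3 counts. The 10 transcription factors, the gene lists and the alternatives were chosen with earlier results of these data known. Named besides the transcription factors were list genes called in a comparison, at most 6 per list, and the 3 genes most like each widely detected transcription factor in Spearman rho of thinned counts, some of which are not reported here. Other genes (among them Trp73, Snai1, Egr2, Nr4a1, Arc, Mcl1, Lama3, Lamb3, Mrtfa, Fhl2, Tagln, Zeb2, Twist1, Epcam, Krt5, Krt14, Gata3, Foxa1, Foxi1, Elf5 and Dcn) were named after their values were seen. Python 3.11.15, numpy 2.4.6, pandas 2.3.3, scipy 1.17.1, R 4.3.3 and edgeR 4.0.16 (for TMM factors only) were used, and the thinning and ratio steps were tested on simulated data.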

Additional observations from a re-analysis of the deposited data

Results flagged for a closer look

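Reads of the transcription factors were also present in cells that did not pass the filter and enter no comparison, above the 3 reads that a count of 0 allows. In the 31 marked adult cells left out, which together held 452541 assigned reads, there were 31 reads of Trp63, 8 of Snai2, 541 of Sox9, 36 of Sox10 and 5 of Tbx3, and 1 cell held 66.2% of the Sox9 reads. In the 67 unmarked adult cells left out, with 719251 assigned reads, there were 40 reads of Trp63, 23 of Snai2, 237 of Sox9, 6 of Sox10, 327 of Tbx3, 31 of Srf and 20 of Zeb1. Of these, 1 cell held 96.9% of the Tbx3 reads and 1 cell held 85.0% of the Zeb1 reads. In the 4 pregnancy cells left out, with 93623 assigned reads, there were 57 reads of Trp63, 18 of Snai2, 21 of Sox9 and 11 of Srf.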

How the results depend on the processing

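Trp63 was called higher in pregnancy under each alternative to the ratio except a pseudocount of 100 CPM, with log2 ratios from 0.94 to 1.96 over marked and from 1.00 to 2.07 over unmarked adult. The number of the 10 genes called higher was 0 with a pseudocount of 100 CPM. It was 1 both without the highest cell of each group and with a minimum of 50 CPM, since Twist2 was then lost. With the mean of log2 values over cells the genes called higher were Trp63 and Snai2, so that Snai2 was gained and Twist2 lost. With reads summed over cells, which weights deeper cells more, 1 gene (Tbx3) was called lower. The mean of log2 values over cells gave Tbx3 ratios of -0.20 over marked and 0.10 over unmarked adult. Of all 9882 genes tested, 1392 were called higher and 977 lower with a pseudocount of 1 CPM, against 915 and 439 with 10 CPM. The counts were 67 and 40 with 100 CPM, and 552 and 32 with the mean of log2 values over cells. A minimum of 50 CPM left 5196 genes tested, of which 458 were called higher. Without the highest cell of each group 7662 genes were tested, of which 233 were called lower. Sox10 turned from below to above the marked adult level (0.01) with the mean of log2 values over cells, and the cause was not tested. Among ratios under 2-fold, Sox9 over marked adult went from -0.04 to 0.59 with that mean, and Tbx2 over marked adult from -0.97 to 0.61 with the stricter cell filter, 0.40 without the highest cell, 0.17 with the mean of log2 values and 0.07 with summed reads. The number of genes with a detection interval above both adult intervals was 5 without thinning and 1 at 100 CPM or more. The median number of genes per cell without thinning was 4 in marked adult and 5 in pregnancy, and at 100 CPM or more it was 2 in marked adult, 1 in unmarked adult and 2 in pregnancy, so that pregnancy and marked adult had the same median. TMM scaling of the summed profiles changed no call of the 10 genes. No paired analysis was possible because the numbers in the titles only count cells and no result comes from a test. The main limits are that each group is 1 sample, that pregnancy cells were deeper and held more genes, and that a gene with few reads can be missed by chance. A missed read was not told apart from a true absence of the transcript.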

Other observations

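Id4, an inhibitor of basic helix-loop-helix factors found in mammary basal cells, was the relative of the listed families with the clearest difference. Its mean was 37.8 CPM in marked adult, 61.7 CPM in unmarked adult and 297 CPM in pregnancy cells, with log2 ratios of 2.68 and 2.10, and after thinning it was detected in 32.1%, 48.3% and 93.0% of cells. Of 8 relatives tested by ratio among 16 listed, Id4 alone was called higher, beside 9.26% of all genes, and Trp53 alone lower, beside 4.44%. By detection 2 of the 9 relatives tested, Id4 and Sox6, were called higher, beside 11.2% of all genes. Sox6 stood at 1.23%, 3.45% and 23.9% of cells. The basic helix-loop-helix gene Tcf4 was detected in 44.4%, 81.0% and 91.5% of cells, with means of 108, 317 and 251 CPM. For Tcf4 the unmarked adult cells thus lay nearer to pregnancy than to the marked adult cells. Krt17, a basal keratin, was called lower in pregnancy, with means of 4590.9, 3485.3 and 580 CPM in marked adult, unmarked adult and pregnancy cells. These differences have no replicate check, and Sox6, Tcf4 and Krt17 were picked after their values were seen.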
